A study of Mus musculus with 7 samples.

Results

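The genes described here are 38 genes of the endothelial cell, the cell that lines blood and lymph vessels, measured in the soleus, a slow postural muscle of the mouse hindlimb. They were chosen by name from general knowledge of this cell type, but with earlier results of these data known. Of the 38, 35 were measured: each of these had a probe set that the platform annotation gives to that gene alone. Where a gene had several, the brightest on average across the 7 arrays was used. Mmrn2, Gpihbp1 and Ly6c1 had no such probe set and were not analysed here. In all, 12393 genes were measured in the same way.

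Total RNA of the soleus was measured on one-colour Affymetrix arrays. The wild type group had 3 arrays and the Yin Yang 1 (YY1) knockout group 4. Both groups were 6 months old, on a mixed background of C57Bl/6 and 129, and no further treatment is given for either. Yy1 encodes a zinc finger transcription factor; the Cre line, the deleted part and the targeted cells are not stated in the labels. Nor is it stated that every array is a different mouse, so p-values here reflect only how much these samples vary, which may be technical.

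Endothelial cells hold together through junction proteins such as VE-cadherin and claudin 5, and they sense growth factors through the VEGF and Tie receptors. Their identity is kept by transcription factors of the ETS and SoxF families, and by Klf2 and Klf4, which respond to blood flow. In muscle they form a dense capillary bed around the fibres, fed by small arteries, drained by veins and accompanied by few lymphatic vessels.

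The arrays were comparable in scale, with medians between 139.1 and 143.2 intensity units. Correlations of log2 levels over all genes were 0.9954 or above within a genotype and 0.9873 or below between genotypes. The knockout arrays held 49.2% of the wild type Yy1 signal, with means of 8.35 ± 0.11 (SD, n = 4) and 9.38 ± 0.22 log2 units (SD, n = 3). The genes of a muscle marker list (Myh7, Tnnt1, Tnni1, Tnnc1, Ckm, Acta1, Myl2 and Mb) had wild type means of 14.6 to 15.6 log2 units. No detection calls were used. As a gauge of the dim end of the scale, 25 genes not expected in muscle had mean levels of 4.10 to 7.63, and their 90th percentile, 6.73, is called the dim reference below. Of the 35 endothelial genes, 4 had a mean under it: Erg, Rasip1, Gja4 and Gja5.

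Endothelial transcripts were lower in the knockout soleus. Of the 35 genes, 25 were lower and none was higher in the knockout at an adjusted p under 0.05 (limma, Benjamini-Hochberg over all 12393 genes), and none was higher at an unadjusted p under 0.05 either. Among all genes, 16% were lower and 17% higher, 32.9% in either direction. The median log2 fold change, knockout minus wild type, was -0.73 over the endothelial genes and 0.01 over all genes, so the median endothelial gene kept 60.5% of its wild type signal. In whole muscle, fewer endothelial cells and less RNA per endothelial cell cannot be told apart.

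The size of the change differed between genes. Of the 25 lower genes, 7 were at 50% of wild type or less (Sox7, Kdr, Emcn, Cldn5, Robo4, Cdh5 and Tek), 17 lay between 50% and 70%, and Clec14a was at 76.8%. A call at or below 50% was made for 1.97% of all genes. The groups did not overlap in 25 endothelial genes, all lower in the knockout, where 19.1% of all genes had no overlap and a lower knockout mean. Aplnr was among these without passing the threshold, and Clec14a passed it although its groups overlapped.

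**Figure D1:**
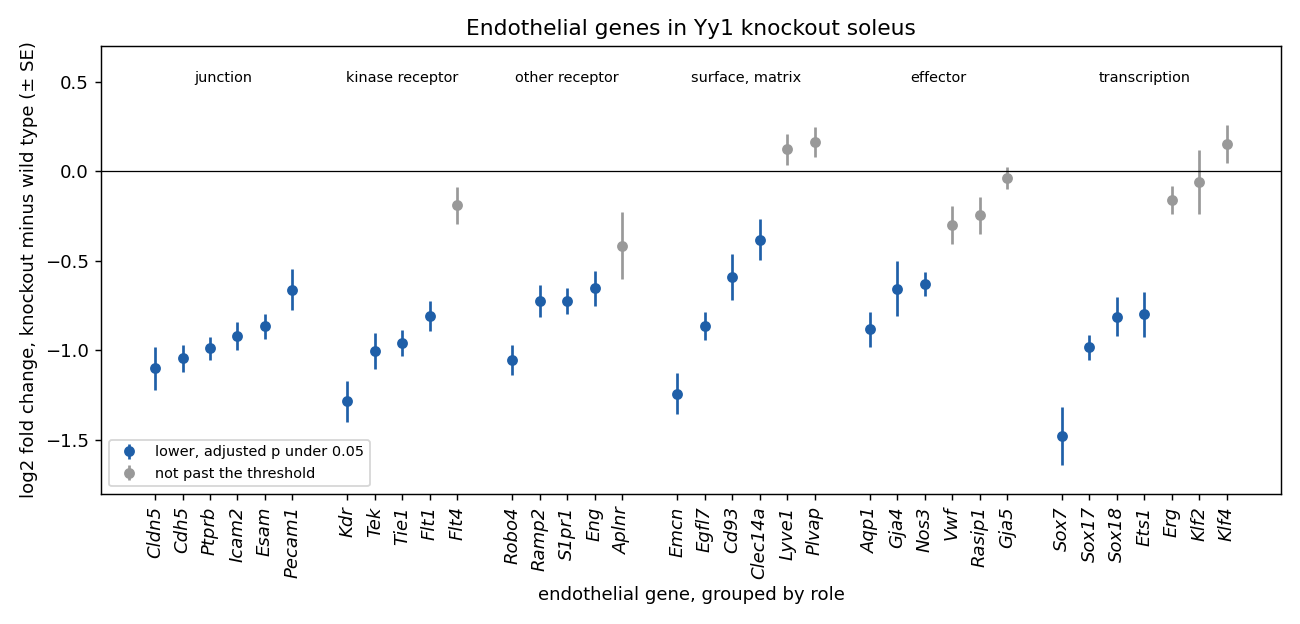
Log2 fold change, knockout minus wild type, of each of the 35 endothelial genes (points; bars are standard errors from limma), grouped by role. Genes at an adjusted p under 0.05 are blue and the others grey; 25 genes are blue, all below 0, with Sox7 lowest at -1.48, and Lyve1, Plvap and Klf4 lie above 0 in grey.

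The 6 genes of cell junctions and adhesion all fell. VE-cadherin (Cdh5), the adhesion molecule of endothelial adherens junctions, measured 9.35, 9.36 and 9.45 log2 units in the wild type arrays and 8.24, 8.33, 8.52 and 8.29 in the knockout arrays. The groups were separated by more than the range within either, and the log2 fold change was -1.04 (SE 0.08, adjusted p = 6.01e-05). Ptprb, the phosphatase VE-PTP that acts on VE-cadherin and Tie2, measured 10.10, 9.95 and 10.07 in wild type and 8.97, 9.07, 9.06 and 9.11 in knockout. Its fold change was -0.99 (SE 0.06, adjusted p = 4.17e-05).

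Esam, an adhesion molecule of tight junctions, measured 9.60, 9.59 and 9.66 in wild type and 8.68, 8.71, 8.91 and 8.69 in knockout, a change of -0.87 (SE 0.07). Pecam1 (CD31), found at endothelial contacts and also on platelets and leukocytes, measured 8.26, 7.98 and 8.22 against 7.29, 7.68, 7.38 and 7.62, a change of -0.66 (SE 0.11, adjusted p = 0.00247). Pecam1 was thus the least lowered of the junction genes, at 63.3% of wild type. Claudin 5 (Cldn5), which seals endothelial tight junctions, was the most lowered, at -1.10 (SE 0.12) or 46.6% of wild type, and Icam2, a ligand for leukocyte integrins, changed by -0.92 (SE 0.08).

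Among the 5 receptor tyrosine kinases, 4 fell. Kdr (VEGFR2), the main signalling receptor for VEGF-A, measured 9.52, 9.72 and 9.75 in wild type and 8.61, 8.27, 8.48 and 8.15 in knockout. Its change of -1.28 (SE 0.11, adjusted p = 0.000129) left 41.1% of the wild type signal. Flt1 (VEGFR1), which binds VEGF-A tightly and limits its access to Kdr, changed by -0.81 (SE 0.08), to 57.2%.

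The angiopoietin receptor Tek (Tie2) measured 9.29, 8.96 and 9.28 in wild type and 8.01, 8.21, 8.23 and 8.25 in knockout, which left 49.9% of the wild type signal (adjusted p = 0.000194). Its partner receptor Tie1 measured 7.16, 7.37 and 7.38 against 6.31, 6.42, 6.37 and 6.29, a change of -0.96 (SE 0.07, adjusted p = 6.66e-05). All 4 knockout values of Tie1 lay under the dim reference, so its fold change may be limited by the dim end of the scale. Flt4 (VEGFR3), the VEGF-C receptor of lymphatic vessels, did not pass (-0.19, SE 0.10, adjusted p = 0.191).

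Of the 5 other receptors, 4 fell. Robo4, a guidance receptor that stabilises vessels, measured 7.35, 7.34 and 7.42 in wild type and 6.32, 6.40, 6.43 and 6.11 in knockout. It changed by -1.05 (SE 0.08, adjusted p = 7.87e-05), again with every knockout value under the dim reference. The sphingosine-1-phosphate receptor S1pr1, which strengthens the endothelial barrier, measured 8.08, 8.14 and 8.23 against 7.37, 7.54, 7.48 and 7.30, a change of -0.72 (SE 0.07). Ramp2, which turns the calcitonin receptor-like receptor into an adrenomedullin receptor, changed by -0.73 (SE 0.09) and the TGF-beta co-receptor endoglin (Eng) by -0.65 (SE 0.10).

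The surface and matrix genes divided. Of 6 measured, 4 fell. Endomucin (Emcn), a sialomucin of capillaries and veins, measured 8.70, 8.99 and 8.98 in wild type and 7.65, 7.75, 7.81 and 7.39 in knockout, a change of -1.24 (SE 0.11, adjusted p = 0.000148). Egfl7, a secreted protein that endothelial cells lay into their matrix, measured 9.76, 9.92 and 9.80 against 8.81, 8.98, 9.09 and 8.97, a change of -0.86 (SE 0.08). The lectin-like receptors changed less, Cd93 by -0.59 (SE 0.13, adjusted p = 0.00772) and Clec14a by -0.38 (SE 0.12, adjusted p = 0.0355).

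The Clec14a call was lost when wild type array 2 (adjusted p = 0.134) or array 3 (0.113) was left out, or knockout array 1 (0.0775) or array 3 (0.0860), and with its probe sets averaged (0.0854). Plvap, the protein of the diaphragms of fenestrae and caveolae, measured 9.11 ± 0.10 in knockout (SD, n = 4) against 8.95 ± 0.14 in wild type (SD, n = 3), with overlapping groups. Its log2 fold change was 0.16 with a 95% interval of -0.03 to 0.35, which does not reach the size of the change in any gene that fell.

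Of the 6 effector genes measured, 3 fell. Endothelial nitric oxide synthase (Nos3), which makes the vasodilator nitric oxide, measured 8.26, 8.05 and 8.14 in wild type and 7.56, 7.56, 7.44 and 7.53 in knockout, a change of -0.63 (SE 0.07, adjusted p = 0.000247). The water channel aquaporin 1 (Aqp1) and the connexin Gja4 are described with the vessel types below. The clotting protein von Willebrand factor (Vwf) measured -0.30 (SE 0.11, adjusted p = 0.0645), with overlapping groups. It passed without wild type array 1 (adjusted p = 0.0392) and over genes above the median level (0.0452). Rasip1, a Ras-interacting protein needed for vessel lumens, measured -0.25 (SE 0.10, adjusted p = 0.104) at levels under the dim reference.

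The transcription factors also divided, and the SoxF family fell as a whole. Sox7 measured 8.57, 8.26 and 8.35 in wild type and 7.27, 7.02, 6.51 and 6.87 in knockout. Its change of -1.48 (SE 0.16, adjusted p = 0.000285) was the largest of the 35 genes and left 35.9% of the wild type signal. Sox17 measured 8.46, 8.37 and 8.40 against 7.48, 7.28, 7.51 and 7.44, a change of -0.98 (SE 0.07, adjusted p = 5.95e-05). Sox18 changed by -0.81 (SE 0.11). The ETS factor Ets1, which lymphocytes also express, changed by -0.80 (SE 0.13), while the ETS factor Erg, a keeper of endothelial identity, did not pass (-0.16, SE 0.08, adjusted p = 0.163). Erg measured 5.80, 5.56 and 5.59 in wild type and 5.51, 5.54, 5.56 and 5.35 in knockout. All 7 values lay under the dim reference, so no level of Erg can be read from this probe set.

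Neither flow-responsive factor passed. Klf2 measured 8.80, 9.36 and 9.33 in wild type and 8.98, 9.05, 9.50 and 8.87 in knockout, a difference of -0.06 (95% interval -0.47 to 0.35). Klf4 measured 9.39, 9.70 and 9.70 against 9.59, 9.71, 9.95 and 9.74, a difference of 0.15 (95% interval -0.09 to 0.39; -0.04 in its second probe set). Both groups overlapped in each gene. Klf2 and Klf4 are also expressed outside endothelium and are induced by tissue handling. Of 13 immediate early genes, which respond to handling, 9 did not pass, where 32.9% of all genes passed in either direction. Of the others, 3 were lower (such as Nr4a1 at -0.88 and Ier2 at -0.28) and Junb was higher (0.89). The summed intensity of the 13 ranged from 13975 to 14856 in wild type and from 12236 to 14770 in knockout. Its part in the Klf2 and Klf4 values was not tested.

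Promoter sequences are shown for 4 genes that fell (Cldn5, Tie1, Eng and Aqp1) and for Klf2, which did not pass, as examples of both kinds of gene. They are RefSeq sequences of mouse build GRCm38.p6, each the 250 bases before the annotated start of the gene, 5′ to 3′ on the gene's strand. Capitals mark AGGAAG, a core that ETS factors bind, on either strand. The windows are chr16:18776597-18776846 (plus strand) for Cldn5, chr4:118489850-118490099 (minus strand) for Tie1, chr2:32646345-32646594 (plus strand) for Eng, chr6:55336049-55336298 (plus strand) for Aqp1 and chr8:72318812-72319061 (plus strand) for Klf2.
Cldn5: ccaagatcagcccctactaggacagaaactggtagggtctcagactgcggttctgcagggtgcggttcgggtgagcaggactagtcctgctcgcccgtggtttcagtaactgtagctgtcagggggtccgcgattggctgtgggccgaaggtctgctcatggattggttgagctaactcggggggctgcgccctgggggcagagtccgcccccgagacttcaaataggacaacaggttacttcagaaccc
Tie1: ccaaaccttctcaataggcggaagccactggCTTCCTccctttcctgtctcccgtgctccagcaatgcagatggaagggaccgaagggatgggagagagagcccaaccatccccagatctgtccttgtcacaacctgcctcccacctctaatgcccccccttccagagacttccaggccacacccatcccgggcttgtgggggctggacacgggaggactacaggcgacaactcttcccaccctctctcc
Eng: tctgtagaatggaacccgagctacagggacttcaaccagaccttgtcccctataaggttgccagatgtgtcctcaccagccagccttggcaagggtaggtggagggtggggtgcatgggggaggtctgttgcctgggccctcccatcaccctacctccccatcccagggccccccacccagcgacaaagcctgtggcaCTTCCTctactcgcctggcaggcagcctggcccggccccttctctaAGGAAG
Aqp1: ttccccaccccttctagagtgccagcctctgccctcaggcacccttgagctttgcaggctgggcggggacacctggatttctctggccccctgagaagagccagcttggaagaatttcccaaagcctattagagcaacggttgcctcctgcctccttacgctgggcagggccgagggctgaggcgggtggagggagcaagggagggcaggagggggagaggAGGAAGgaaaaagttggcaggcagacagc
Klf2: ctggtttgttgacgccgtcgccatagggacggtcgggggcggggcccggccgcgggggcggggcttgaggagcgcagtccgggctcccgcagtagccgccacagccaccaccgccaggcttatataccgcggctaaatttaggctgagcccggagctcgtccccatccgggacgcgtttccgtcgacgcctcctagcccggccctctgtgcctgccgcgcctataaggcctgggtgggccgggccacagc

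Tie1 and Aqp1 held 1 copy of AGGAAG each and Eng held 2, while Cldn5 and Klf2 held none. These 5 do not stand for the rest: among genes with a window, AGGAAG was found for 7 of the 12 that fell and for 4 of the other 7 (Erg, Gja5, Rasip1 and the unmeasured Ly6c1). The RefSeq table had windows for 19 of the 38 genes, 24 windows in all since some genes have several starts. AGGAAG occurred on either strand in 12 of the 24 windows and in 29.5% of all 32851 windows of this length. The YY1 motif GCCATNTT occurred in 0 of 24 and in 3.91% of all windows, the SOX motif ACAATG in 1 of 24 and 10.7%, and the KLF motif GGGTGNGG in 9 of 24 and 14.9%. Motifs were searched on both strands, each on its own, so a base can belong to more than 1 match. These matches are letters in a window and not measured binding.

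Capillary, arterial and lymphatic genes were then compared. Beside them, 6 genes shared by all endothelium (Cdh5, Pecam1, Tie1, Tek, Esam and Erg) served as a core: 5 fell, with a median of -0.91 over the 6. Of the 2 capillary genes measured, Aqp1 fell and Aplnr did not pass. Of the 3 arterial genes, Sox17 and Gja4 fell, Gja4 at a mean level under the dim reference, and Gja5 did not pass. Neither of the 2 lymphatic genes, Lyve1 and Flt4, passed, also at an unadjusted p under 0.05.

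Aqp1, the water channel of capillaries, measured 11.80, 11.79 and 12.04 in wild type and 10.89, 10.98, 10.90 and 11.20 in knockout, a change of -0.88 (SE 0.10, adjusted p = 0.000278). Red cells also hold Aqp1. Of the 3 red cell genes measured, Alas2 was lower (-0.70, adjusted p = 0.0236), and Hba-a1 and Slc4a1 lay under the dim reference in all arrays; their summed intensity was 194 to 252 in wild type and 132 to 186 in knockout, and its part in the Aqp1 value was not tested. Aplnr, the apelin receptor of capillaries and veins, measured 9.19, 9.10 and 9.18 in wild type and 8.99, 8.66, 9.10 and 8.22 in knockout. Every knockout value was lower, but the knockout arrays spread widely, with an SD of 0.40, and the difference of -0.42 (SE 0.19) did not pass (adjusted p = 0.127). A second, dimmer probe set of Aplnr gave -0.37, and with both averaged the gene passed (adjusted p = 0.0461). Without knockout array 4, the lowest, the difference was -0.24 (adjusted p = 0.159).

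Among the arterial genes, Gja4, a connexin, a gap junction protein of arterial endothelium, measured 6.53, 6.34 and 7.08 in wild type and 5.96, 6.05, 6.10 and 5.87 in knockout. The groups were apart, with wild type array 3 high, and the change was -0.65 (SE 0.16, adjusted p = 0.0124). Every value of Gja4 apart from wild type array 3 lay under the dim reference, which limits what can be read from it. Gja5, its partner connexin in arteries, measured 5.15, 4.98 and 5.05 against 5.03, 5.03, 5.06 and 4.96, a difference of -0.04 (SE 0.06). Gja5 lay far under the dim reference in every array, so no arterial change can be read from it. Sox17, which marks arteries, fell as given above to 50.6% of wild type.

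The intervals of both lymphatic genes included 0. Lyve1, a hyaluronan receptor of lymphatic endothelium, measured 7.69, 7.92 and 7.93 in wild type and 7.88, 7.94, 7.92 and 8.13 in knockout, a difference of 0.12 (95% interval -0.07 to 0.32). Flt4 measured 7.05, 6.96 and 7.14 against 6.93, 6.96, 6.58 and 6.96, a difference of -0.19 (95% interval -0.42 to 0.04). Tissue macrophages also carry Lyve1. All 12 macrophage markers were higher in the knockout, with a median of 1.12, such as Cd68 (2.05) and Mrc1 (1.32). Their summed intensity was 3756 to 4548 in wild type and 8003 to 13425 in knockout, with Itgam, Fcgr1 and Aif1 under the dim reference on average. The part of macrophages in the Lyve1 value was not tested.

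**Figure D2:**
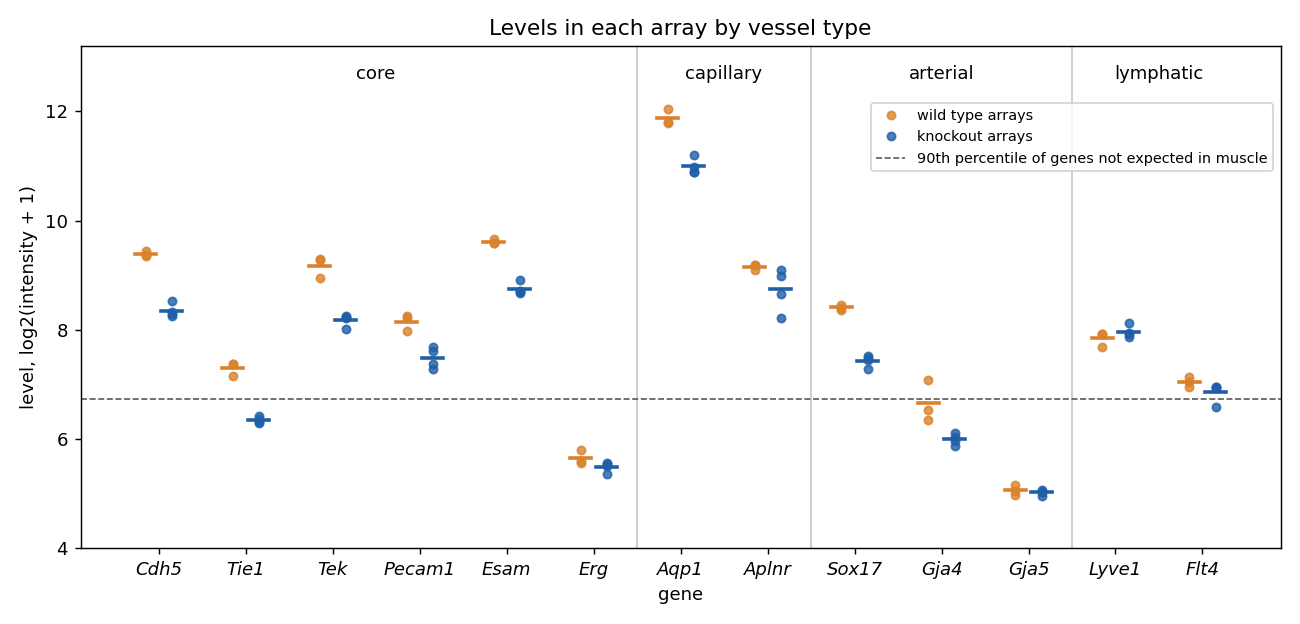
Level of each core, capillary, arterial and lymphatic gene in each array, as log2(intensity + 1); points are arrays, short bars group means, and the dashed line is the dim reference at 6.73. The 3 wild type points lie above the 4 knockout points in 9 of the 13 genes shown, while the groups overlap in Erg, Gja5, Lyve1 and Flt4.

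To ask whether a gene changed by more or less than the core, the mean log2 level of the 6 core genes was subtracted within each array. This mean was 8.24, 8.14 and 8.26 in the wild type arrays and 7.34, 7.48, 7.49 and 7.41 in the knockout arrays, a difference of -0.78, or 58.2% of wild type. Since the core fell, 92.5% of all genes were higher relative to it at an adjusted p under 0.05, and 1.69% were lower. Of the 29 endothelial genes outside the core, 9 were higher, 6 were lower and 14 did not pass. The array error of the core is shared by every gene in this fit.

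Genes lower than the core were Sox7 (-0.70, SE 0.17, adjusted p = 0.00139), Kdr (-0.50, SE 0.13), Emcn (-0.46, SE 0.12), Cldn5 (-0.32, SE 0.11), Robo4 (-0.27, SE 0.09) and Ptprb (-0.21, SE 0.08). With the core taken without Erg, which was chosen after its dim level was seen, 3 genes were lower: Sox7 (adjusted p = 0.00496), Kdr (0.0135) and Emcn (0.0143). Against Cdh5 alone, 1 was lower, Sox7 (-0.43, adjusted p = 0.0238). Cldn5 passed in 12 of 15 alternatives, Ptprb in 10 of 15 and Robo4 in 11 of 14, and Ptprb changed sign against Cdh5 alone (0.05).

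Genes higher than the core were Plvap (0.94, SE 0.10, adjusted p = 1.58e-06), Klf4 (0.93, SE 0.11), Lyve1 (0.90, SE 0.10), Gja5 (0.74, SE 0.08), Klf2 (0.72, SE 0.16), Flt4 (0.59, SE 0.11), Rasip1 (0.54, SE 0.12), Vwf (0.48, SE 0.11) and Clec14a (0.40, SE 0.12). Plvap, Klf4, Lyve1, Klf2 and Vwf passed in all 15 alternative settings. Gja5 and Rasip1 lay at the dim end, where a fall could not be read, and their difference from the core carries that limit. Flt4, at a mean level of 6.94, lay only slightly over the dim reference, which also limits its difference from the core. Relative to the core, Aqp1 (-0.10, adjusted p = 0.350), Gja4 (0.13, adjusted p = 0.354), Sox17 (-0.20, adjusted p = 0.0559) and Aplnr (0.37, adjusted p = 0.0555) did not pass. Both lymphatic genes were higher than the core, as were 92.5% of all genes, since the core fell. The vessel types were not tested against each other. The Aplnr result depended on the setting: it passed as higher than the core in 6 of 15 alternatives. Examples are without knockout array 4 (0.53, adjusted p = 0.00112) and with the core without Erg (0.49, adjusted p = 0.0149). The replicate block also gave 0.53 (adjusted p = 0.000569). It is not a separate check: only knockout array 4 has replicate number 4, so the block removes it from the estimate. Sox17 passed in 4 of 15.

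**Figure D3:**
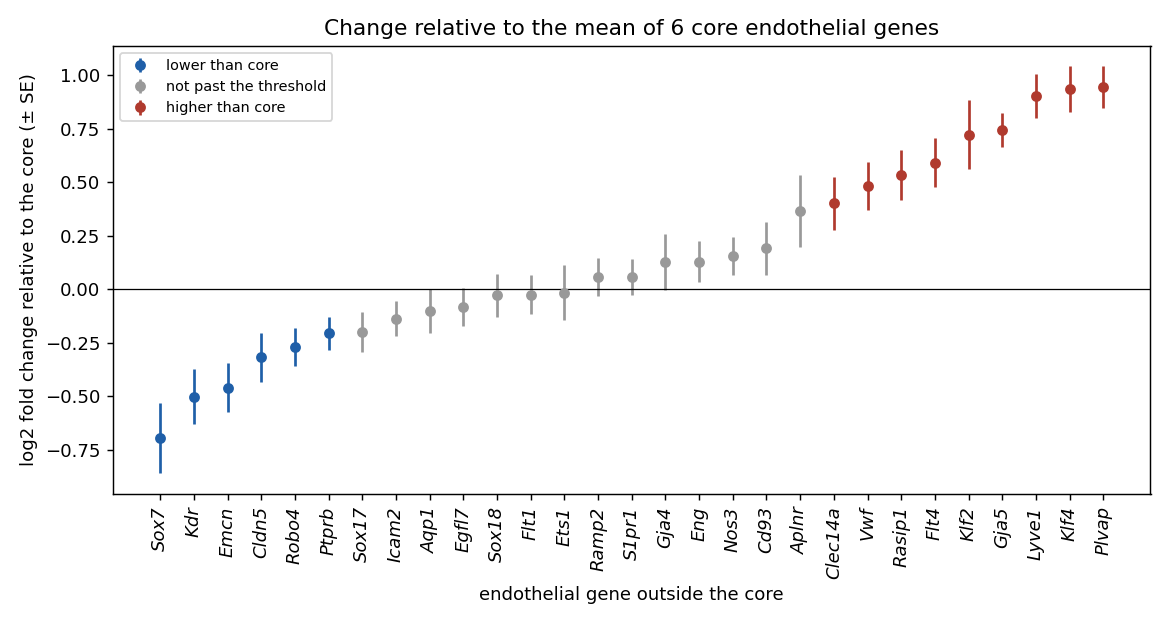
Log2 fold change relative to the mean of the 6 core genes for each of the 29 other endothelial genes (points; bars are standard errors from limma), in order of size. Blue marks the 6 genes lower than the core, from Sox7 at -0.70, red the 9 genes higher than it, up to Plvap at 0.94, and grey the 14 that did not pass.

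Several genes had more than 1 probe set. Of the 35, 12 had several, 8 of them among the genes that fell. In 5 of those 8 (Cdh5, Cd93, Clec14a, Ets1 and Flt1) another probe set showed less than 50% of the reported change or the opposite sign. For Cdh5 it measured -0.20 at a mean level of 4.89, for Cd93 -0.22 at 5.44 and for Flt1 -0.39 at 6.40. The second, dimmer probe set of Clec14a measured 0.02, and those of Ets1 -0.18 at 6.09 and 0.03 at 4.66. Each of these lay under the dim reference. The other probe sets of Egfl7 (-0.68 to -1.06), Eng (-0.89) and Sox17 (-0.99) lay close to those reported.

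Further endothelial genes were taken from lists chosen by name, also with earlier results of these data known. Of 20 other genes of endothelium in general, 12 fell and 1 rose (median -0.34). She, an adaptor protein, changed by -1.01 (SE 0.08) and Ushbp1 by -0.88 (SE 0.07). Stab1, a scavenger receptor that macrophages also express, rose by 0.49 (SE 0.11). Of 8 other capillary genes, 6 fell and 1 rose (median -0.95), a list in which Cd36, Fabp4 and Lpl are also genes of muscle fibres or fat. Carbonic anhydrase 4 (Car4), of the capillary surface, changed by -2.12 (SE 0.16) and the transcription factor Tcf15 by -1.27 (SE 0.06). Rgcc rose by 0.91 (SE 0.15).

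Of 12 other arterial and Notch pathway genes, 6 fell and 1 rose (median -0.21). Notch4, a Notch receptor of endothelium, changed by -0.83 (SE 0.08) and neuropilin 1 (Nrp1), a co-receptor for VEGF-A, by -0.80 (SE 0.11). Hey2 rose by 0.24 (SE 0.06) at levels under the dim reference. On average 5 of the 12 lay under it, Hey2 among them, which limits what can be read from the median. Of 8 venous and activation genes, 1 fell, the venous factor Nr2f2 at -0.63 (SE 0.08), and none rose, also at an unadjusted p under 0.05 (median -0.09).

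Of 6 other genes of the lymphatic list, 1 fell and 2 rose. Prox1, the factor that defines lymphatic endothelium, lay under the dim reference (5.10 in wild type and 5.02 in knockout), as did Foxc2. Podoplanin (Pdpn) rose by 1.44 (SE 0.14) and integrin alpha 9 (Itga9) by 1.21 (SE 0.17), and Fxyd6 changed by -1.61 (SE 0.11). These 3 genes are also expressed by other cell types, and Prox1, the defining marker, had no readable level. Reln, also of this list, lay over the dim reference at 7.17 in wild type and 7.17 in knockout. Its difference was -0.01 (SE 0.13, adjusted p = 0.967).

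Of 12 ligands of the endothelial receptors, 4 fell, 1 rose and 7 did not pass (median -0.31), where 32.9% of all genes passed in either direction. Vegfa, the ligand of Kdr and Flt1, measured 9.31 ± 0.29 in knockout (SD, n = 4) against 10.61 ± 0.03 in wild type (SD, n = 3), a change of -1.30 (SE 0.14, adjusted p = 0.000263). Vegfb, a ligand of Flt1, changed by -1.08 (SE 0.12). Tgfb1, whose signal endoglin modulates, rose by 0.28 (SE 0.08) at levels under the dim reference. The angiopoietins Angpt1 (-0.35, adjusted p = 0.0729) and Angpt2 (-0.27, adjusted p = 0.0755), ligands of Tek, did not pass. On average 6 of the 12 ligands lay under the dim reference, Angpt2 among them.

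**Figure D4:**
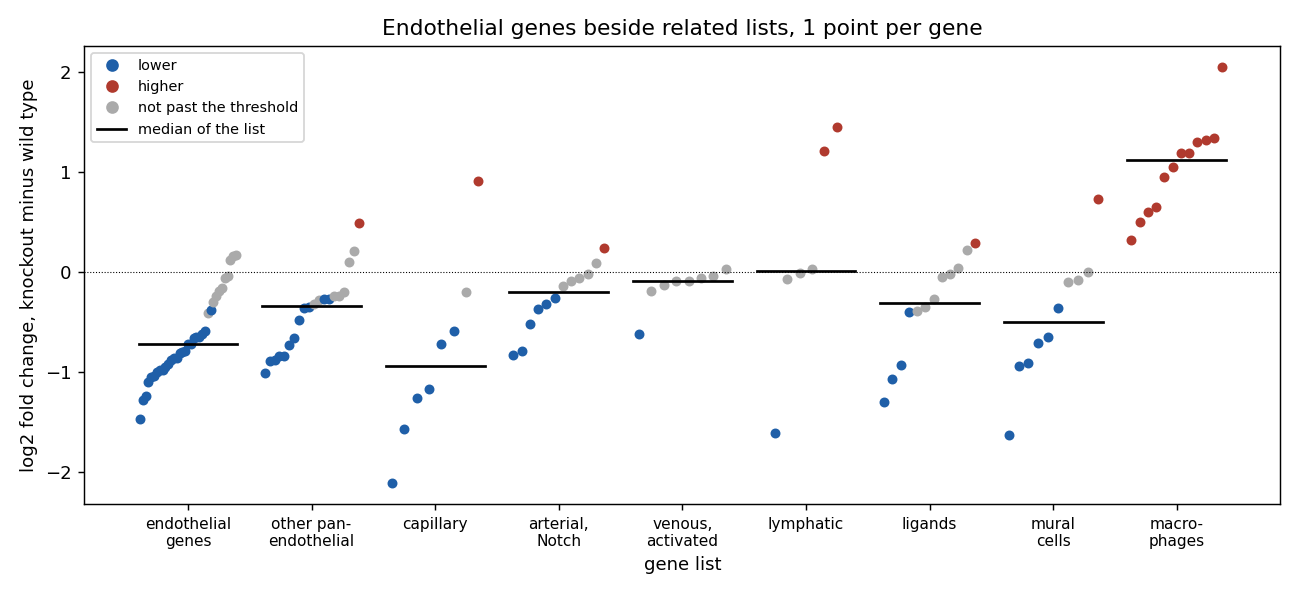
Log2 fold change, knockout minus wild type, of each gene (1 point) in the 35 endothelial genes and in 8 related lists, with the list's median as a bar. Blue points are lower and red points higher at an adjusted p under 0.05. The median is -0.73 for the endothelial genes, -0.95 for other capillary genes, -0.09 for venous and activation genes and 1.12 for macrophage markers.

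Markers of other cells changed beside the endothelial genes. Of 10 genes of pericytes and smooth muscle, which wrap vessels, 6 fell and 1 rose (median -0.51): Kcnj8, a potassium channel of pericytes, changed by -1.64 (SE 0.08), Rgs5 by -0.91 (SE 0.08) and Cspg4 by 0.73 (SE 0.10). Their summed intensity was 15084 to 17614 in wild type and 10169 to 10920 in knockout. Of 6 fibroblast genes, 3 rose, such as Col1a1 (0.96) and Col1a2 (0.84). Of 4 platelet genes, Pf4, which macrophages also express, rose by 0.84 and Ppbp changed by -0.39 under the dim reference. None of 6 lymphocyte genes passed (also at an unadjusted p under 0.05), with Cd3d at 0.10 and Cd79a at 0.08. On average 5 of the 6 lay under the dim reference, Cd3d and Cd79a among them, so a change in these could not be read. Of 4 fat cell genes, Lep changed by -1.88, at a mean level under the dim reference, Retn changed by 1.06 and 2 did not pass. Of 3 Schwann cell genes Mbp changed by -1.73. In the list of 8 muscle genes, 4 rose (Tnni1 by 0.40 and Tnnc1 by 0.25) and 2 fell (Mb at -0.41 and Ckm at -0.21). The wild type means of this list reached 15.6, the highest among all genes. Whether levels this high limit the fold changes was not tested. The part of these cells in the endothelial values was not tested.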

How the data were processed

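The values deposited by the authors are intensities. RMA, which corrects background, normalizes arrays together and summarizes probes, appears in the submitters' processing notes, with no version. The deposited intensity values were linear (11.3 to 50754), so log2(value + 1) was taken, and fold changes are on that scale. The table held 22690 probe sets, of which 64 were controls, 20380 had 1 gene symbol, 691 several and 1555 none in the platform annotation. Symbols were updated through Entrez identifiers of RefSeq, which matched 12369 of 12393 genes. The number of arrays limits the precision. Any 2 arrays shared at most 1819 equal values.

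Knockout was compared with wild type by limma 3.58.1 in R 4.3.3 (lmFit, eBayes, two-sided, threshold 0.05, Benjamini-Hochberg adjustment over all genes, no filter). The same fit was run on levels minus the core mean. The fit was also run on 20 simulated draws in which 200 of 12393 genes were changed, with spreads taken from the wild type arrays. It recovered 94.3% of genes changed by 1 log2 unit and 70.4% of those changed by 0.5, and 6.06% of calls were false. In the data 32.9% of genes were called, so these rates hold for the simulated setting only. Wild type and knockout arrays 1 to 3 share replicate numbers, and their deviations from the group means correlated at 0.03, -0.13 and 0.02, so no pairing was used. The members, their roles and the other lists were chosen with earlier results of these data known. All members are named; array values are given for core and vessel type genes and for the 2 of each role with the smallest p, with Klf2 and Klf4 added after their values were seen, and other lists by up to 2 genes in each direction with the smallest p. Angpt1, Angpt2, Foxc2, Reln, Itgam, Fcgr1 and Aif1 were named after their values were seen. Alternatives were another pseudocount, filter, normalization, probe set rule, array weights, replicate block, core and leaving out each array.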

Additional observations from a re-analysis of the deposited data

Results flagged for a closer look

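Among the 35 endothelial genes, the 4 knockout arrays of 4 genes held 1 value far from the other 3 (a gap past Dixon's 95% limit for 4 samples), where chance flags about 1 in 20 groups. Esam was high in knockout array 3 (8.91, next 8.71) and Sox18 in knockout array 2 (9.19, next 8.84). Tek was low in knockout array 1 (8.01, next 8.21) and Flt4 in knockout array 3 (6.58, next 6.93). Array 3 stood out in 2 of the 4 genes, high in one and low in the other. Esam, Sox18 and Tek were lower in the knockout without any 1 array. Flt4 did not pass in any setting of knockout against wild type, though it did relative to the core.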

How the results depend on the processing

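Over 14 alternatives (pseudocount 16, only genes above the median level, quantile or median scaling, averaged probe sets, array weights, the replicate block and leaving out each array), 24 of the 25 lower genes passed wherever they were tested; the exception was Clec14a. The number of lower genes was 24 to 26 when 1 array was left out, 21 over genes above the median level, where fewer genes were tested, and 25 with averaged probe sets. None was higher under any of them. The median log2 fold change of the endothelial genes lay between -0.80 and -0.68. With the replicate block 25 genes were lower, with a median of -0.74, and no call between knockout and wild type changed. The replicate numbers are shared by number only. Only knockout array 4 has number 4, so this fit gave the same fold changes as leaving that array out. Relative to the core, 5 genes were higher over genes above the median level, since the dimmer ones were not tested. Against Cdh5 alone, 17 were higher and 1 lower, and with the core without Erg, 13 were higher and 3 lower. Both references fell by more than the 6-gene core. Averaged probe sets gave 11 higher and 9 lower, the replicate block 10 higher and 4 lower, and leaving out 1 array gave 9 to 10 higher and 4 to 7 lower. For genes under the dim reference, signal over background limits what can be read.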
